A study of Mus musculus and Sus scrofa with 18 samples.

Results

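The striatum of treated HD-KI pigs (3 libraries) was compared with that of untreated HD-KI pigs (3 libraries) by RNA-seq, so 6 of the 18 libraries of the series entered the comparison. They were chosen by their labels, and no measured value was used. HD-KI pigs are heterozygous for a knock-in allele in which exon 1 of their own HTT gene was replaced by the human exon with a long CAG stretch. Treated pigs received AAV-CasRx/HTT gRNAs and untreated pigs AAV-CasRx/Ctrl gRNA, both by injection of AAV9 into both striata at 3 months of age, and the tissue was taken at 7 months. "Untreated" therefore means a control guide and not the absence of a vector: the knock-in allele, CasRx driven by the CAG promoter and the injection were common to both groups. By the study's methods, the 3 WT pigs of the same experiment received AAV-Ctrl gRNA without CasRx. A supplementary legend on the pig RNA-seq names AAV-CAG-EGFP for the WT group instead. WT pigs are given beside the HD-KI pigs where they help to place a value. Neither the labels nor the study's text say that each library was made from a separate pig, so p-values measure the spread between these libraries, which may be technical. A library is called a pig below. The sex of the pig behind a library was not used here.

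CasRx is an engineered Cas13d, a CRISPR enzyme that a guide RNA leads to a complementary RNA, which it then cuts, leaving the DNA as it is. Huntingtin, the protein encoded by HTT, gains a long polyglutamine stretch when the CAG repeat is expanded. The striatum, whose GABAergic projection neurons receive input from the cortex and dopamine neurons, is the part of the brain most affected in Huntington's disease. Changed transcription of neuronal genes there is a known feature of the disease.

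The guides are what set the 2 groups apart, so their sequences are shown, 5′ to 3′, as the spacers listed in the supplementary oligonucleotide table of the study. Capitals mark the longest run of bases that a guide shares with another of the 5, where that run has at least 10 bases.
HTT gRNA4: gtgcctgcggcggcgGCTGAGGAAGCTGAG
HTT gRNA3: GCTGAGGAAGCTGAGgaggcggcggcggcg
Ctrl gRNA: cggaattcatccagccaCCAGGGTCGCCg
HTT gRNA2: ggtcggtgcagcggctcctcagccacagcc
HTT gRNA1: aggccttcatcagcttttCCAGGGTCGCCa
HTT gRNA3 and HTT gRNA4 overlapped by 15 bases, the first 15 of HTT gRNA3 and the last 15 of HTT gRNA4. The control guide, of 29 bases, shared a run of 11 bases (its bases 18 to 28) with bases 19 to 29 of HTT gRNA1. Between HTT gRNA2 and the control guide the longest shared run was 7 bases. Of the bases, 56.7% were G or C in HTT gRNA1, 73.3% in HTT gRNA2, 76.7% in HTT gRNA3, 73.3% in HTT gRNA4 and 65.5% in the control guide. What the control guide binds in these pigs was not tested.

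The counts stand under pig Ensembl gene IDs, which neither the files nor the reference tables used here pair with gene names or positions. The level of HTT, the neuronal and glial markers by which the tissue could be checked, and the candidate off-target genes were therefore not analysed here, and only 4 genes are given, by ID. Depth separated the groups. Total counts were 5438265, 5503982 and 4819236 in untreated pigs, replicates 1 to 3, and 10051136, 16017775 and 9120925 in treated pigs, so the mean treated library was 2.23 times as deep. WT libraries lay between, at 7583305, 7881733 and 8603735 counts. Depth and treatment thus cannot be told apart by a comparison of the HD-KI groups alone.

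More genes were counted in the deeper, treated libraries, with 16910, 16669 and 17152 genes against 16269, 16284 and 15189 in untreated pigs. At the depth of the smallest library (4819236 counts) this difference was gone. The number of genes expected at that depth was 16082, 15243 and 16278 in treated and 16146, 16166 and 15189 in untreated pigs, a mean of 15868 ± 550 (SD, n = 3 pigs) against 15834 ± 558 (SD, n = 3 pigs; two-sided exact permutation test, p = 0.9). In both groups 1 library was low, treated replicate 2, which was the deepest, and untreated replicate 3, the shallowest. The 10 most abundant genes of each library, ranked within it, held 25.9%, 28.5% and 27.9% of its counts in treated pigs. In untreated pigs they held 28.3%, 31.6% and 34.5%, and the ranges overlapped (two-sided exact permutation test, p = 0.2). Of the 10 measures per library tested in this way none had an adjusted p under 0.2, and 0.1 is the smallest p that 3 pigs against 3 allow.

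**Figure D1:**
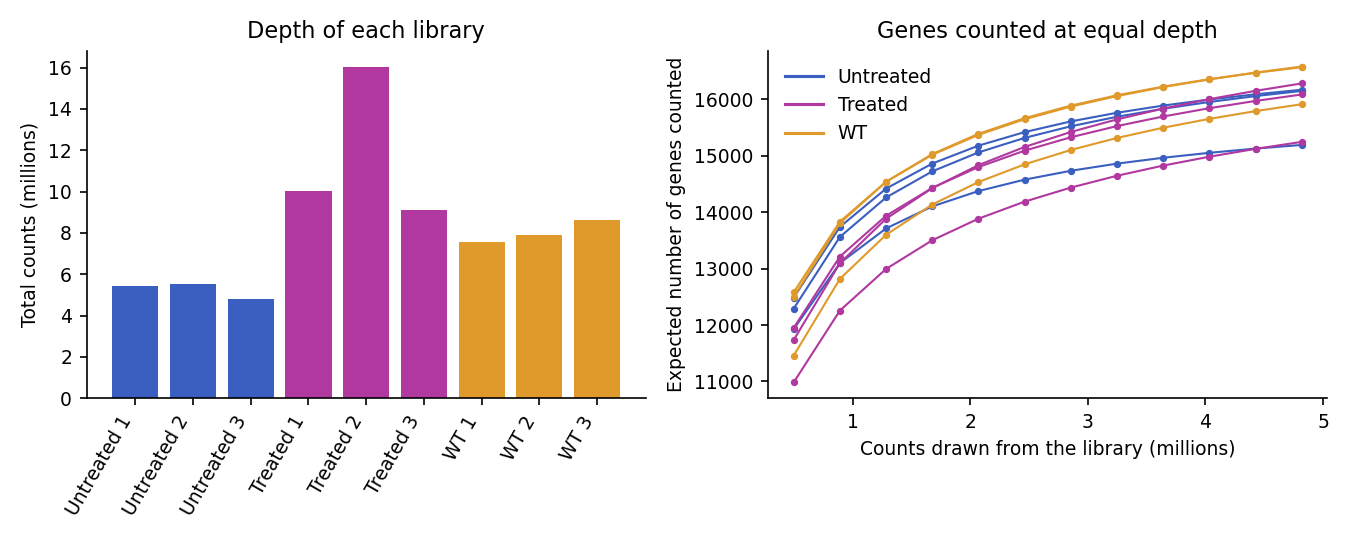
Left, total counts of each library (bars from 0); right, expected number of genes counted (y axis, starting above 0) in a given number of counts (x axis), 1 line per library, coloured by group. The treated libraries held 9120925 to 16017775 counts and the untreated 4819236 to 5503982, but at 4819236 counts the lines of both HD-KI groups ended between 15189 and 16278 genes.

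Of 35670 genes, 13184 had enough counts to be tested, and these held at least 99.7% of the counts of each library. Over all 9 pigs, the spread between pigs of a group (median SD of a gene in log2 CPM, where CPM are counts relative to the scaled library total) was 0.41 in treated, 0.49 in untreated and 0.44 in WT pigs. The first principal component of these values held 28.8% of the variance. It placed the untreated pigs at −10.1, −53.5 and −71.4, the treated pigs at 12.6, 93.7 and 21.8, and the WT pigs at 19.7, −17.4 and 4.65. The HD-KI groups did not overlap on it, the WT pigs overlapped with both HD-KI groups, and treated replicate 2 and untreated replicate 3 stood at its ends.

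By a cutoff that includes a 2-fold change, more genes were lower than higher in treated pigs. A gene was called a DEG at an unadjusted P under 0.05 by the quasi-likelihood test of edgeR and a fold change of at least 2. There were 1434 DEGs, 10.9% of the genes tested, of which 370 (2.81% of genes tested) were higher and 1064 (8.07%) lower in treated pigs. The median log2 fold change was 1.26 among the higher and −1.71 among the lower DEGs, and 65 of the higher and 377 of the lower ones changed at least 4-fold. A typical DEG had a standard error of 0.52 on the log2 scale. Over all genes tested the median log2 fold change was 0.00, a value that TMM scaling sets near 0 and that says nothing of a shift common to all genes. As the tissue was analysed in bulk, fewer cells of a type and less RNA per cell cannot be told apart for any gene given here.

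After Benjamini-Hochberg adjustment of the edgeR quasi-likelihood P-values 0 genes (0%) passed 0.05, the smallest adjusted p being 0.0875, although 2283 genes (17.3%) had an unadjusted P under 0.05. DESeq2 gave 625 genes past the adjusted threshold, 152 higher and 473 lower, and edgeR's exact test 409, 79 higher and 330 lower. With the log2 total count of the library as a covariate, 474 DEGs were found and the balance turned, with 362 higher and 112 lower. Of these 474, 48 (10.1%) were among the 1434 DEGs of the main fit, against 10.9% of all genes tested. The 48 were 3.35% of the 1434, and 40 of the 48 had the same direction. This covariate differs between the groups without overlap, and so takes up part of any difference between them. Scaling by total counts alone, which moved the median of all genes to −0.10, gave 220 higher and 1173 lower DEGs.

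Lower DEGs outnumbered higher ones most among genes of low level, and the median fold change differed with level too, although cyclic loess offsets nearly removed that difference between medians and the depth covariate turned it. When the genes tested were divided into quartiles by their average level over all 9 pigs, the lowest quartile (0.763 to 3.47 CPM) had 79 higher (2.4% of its genes) and 313 lower (9.5%) DEGs. The next had 106 (3.22%) and 377 (11.4%). The third had 91 (2.76%) and 245 (7.43%), and the highest quartile (27.5 to 73789 CPM) 94 (2.85%) and 129 (3.91%). Lower DEGs were thus 79.8%, 78.1%, 72.9% and 57.8% of the DEGs, from the lowest to the highest quartile. DEGs made up 11.9%, 14.7%, 10.2% and 6.77% of the genes of a quartile. The median log2 fold change of all genes in a quartile rose in the same order, at −0.31, −0.13, 0.03 and 0.23, and the share of genes with a fold change below 0 went from 62.3% to 32.6%.

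**Figure D2:**
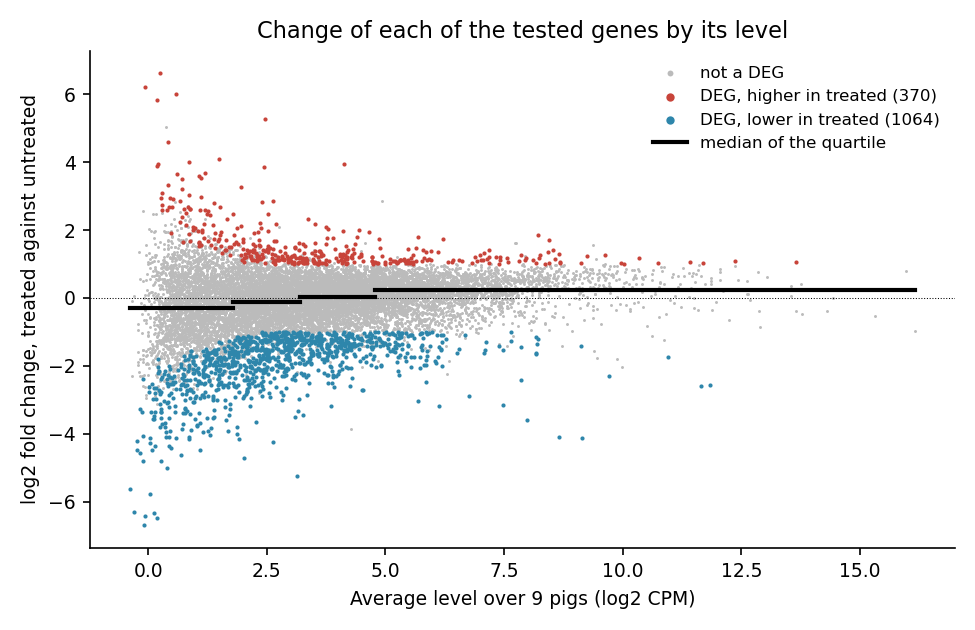
Log2 fold change of treated against untreated pigs (y axis) against the average level over 9 pigs in log2 CPM (x axis), 1 point per gene tested, with DEGs coloured by direction and black bars at the median of each quartile of level. The bars rose from −0.31 to 0.23, while the 1064 lower DEGs lay mostly at low and middle levels.

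The same pattern was seen pig by pig. In the lowest quartile, the median difference of the genes from their mean over 9 pigs, on the scale of log2 CPM, was 0.19, 0.34 and 0.11 in untreated pigs, replicates 1 to 3, and 0.039, −0.23 and 0.031 in treated pigs. In the highest quartile it was −0.041, −0.15 and −0.085 in untreated and 0.056, 0.23 and 0.053 in treated pigs. In both quartiles each treated pig lay beyond each untreated pig (two-sided exact permutation test, p = 0.1 in each, the smallest possible; adjusted p = 0.2 over the 10 measures). WT pigs spanned −0.031 to 0.16 in the lowest and −0.054 to 0.14 in the highest quartile and overlapped with one or both HD-KI groups. Treated replicate 2, the deepest library, was farthest from 0 in the highest quartile, and without it the median log2 fold change of that quartile's genes was 0.18 in place of 0.23. Offsets from a cyclic loess fit, which take out differences that depend on level, left 426 higher and 906 lower DEGs. The medians of the lowest and the highest quartile were then −0.0046 and 0.047. After thinning of all libraries to the total of the smallest they were −0.33 and 0.20, close to the values without thinning. With the log2 total count as covariate they were 0.17 and 0.084, the lowest quartile being reversed. Thinning makes only the totals equal, and other differences between libraries that may go with depth were not tested.

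**Figure D3:**
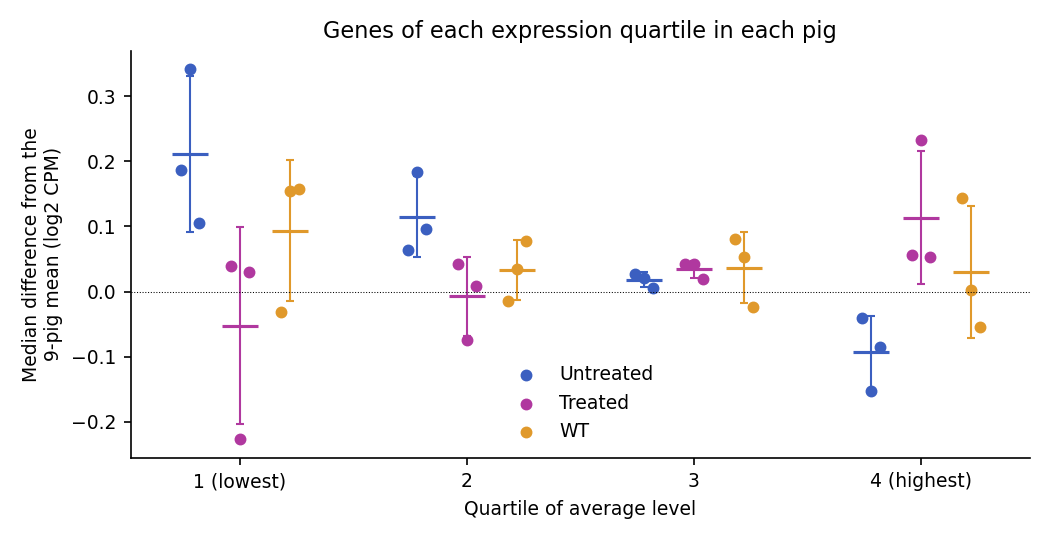
Median difference of the genes of each expression quartile (x axis) from their mean over 9 pigs, in log2 CPM (y axis), with 1 point per pig, and the mean and SD of each group as bar and whiskers. Treated pigs lay below untreated pigs in quartiles 1 and 2 and above them in quartile 4, and the groups overlapped in quartile 3.

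Among the 1000 and the 100 most abundant genes, more were higher than lower in treated pigs, but not among the top 10. Of the 1000 most abundant genes, 46 were higher and 24 lower DEGs, 7% in all, against 10.9% of all genes tested (2.81% higher and 8.07% lower). Of these 1000, 771 had a fold change above 0, with a median log2 fold change of 0.40. Of the 100 most abundant genes, 6 were higher and 3 lower DEGs, 9% in all, and 72 had a fold change above 0. Of the 10 most abundant, 1 was a DEG, and it was higher. Of these 10, 5 had a fold change above 0, with a median log2 fold change of −0.19 and a range from −0.97 to 1.07. All these values are from the main fit. The median of the highest quartile, 0.23 in that fit, was 0.047 with loess offsets and 0.084 with the log2 total count as covariate.

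Genes whose 3 treated and 3 untreated values did not overlap numbered 3103, 23.5% of the genes tested. They were nearly balanced, with 1495 higher (11.3%) and 1608 lower (12.2%), unlike the DEGs, which were called by P and a 2-fold change. Which part of the DEG definition goes with this difference in balance was not tested. Of the 1434 DEGs, 1169 (8.87% of genes tested) had no overlap. With each HD-KI pig left out in turn, 529 of the 1434 DEGs, or 36.9%, met the DEG definition in all 6 fits, of which 94 were higher and 435 lower. The number of DEGs ranged from 970 without treated replicate 2 to 1873 without untreated replicate 1, and the higher DEGs alone rose from 370 to 676 without untreated replicate 1. Without treated replicate 2 and untreated replicate 3 together, the pigs at the ends of the first component, 327 higher and 635 lower DEGs were found, 669 of them among the 1434.

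Of all 35670 genes, tested or not, 156 had a count in each treated pig and none in any untreated pig at the depth of these libraries. For 34 genes it was the reverse. With at least 5 counts required in each pig of the group where the gene was counted, these numbers were 11 and 2. The treated libraries were deeper, and whether these numbers would hold at equal depth was not tested.

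WT pigs, which entered the fit and its filter but not the fold change of treated against untreated pigs, had a mean level between those of the HD-KI groups for most DEGs. Over the 1064 lower DEGs the median level in log2 CPM was 2.91, 3.35 and 3.40 in untreated pigs, 2.38, 2.56 and 2.20 in WT pigs and 1.81, 1.22 and 1.70 in treated pigs, replicates 1 to 3. Treated pigs were thus below WT pigs, and untreated pigs above them. Over the 370 higher DEGs it was 2.52, 2.31 and 2.24 in untreated, 3.13, 3.15 and 3.23 in WT and 3.49, 3.88 and 3.48 in treated pigs. The WT mean was between the means of the HD-KI groups for 916 of the lower and 297 of the higher DEGs. The treated and untreated values are those that chose these genes, and a choice by their difference sets them on either side of a group like WT, so these levels are a description only.

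**Figure D4:**
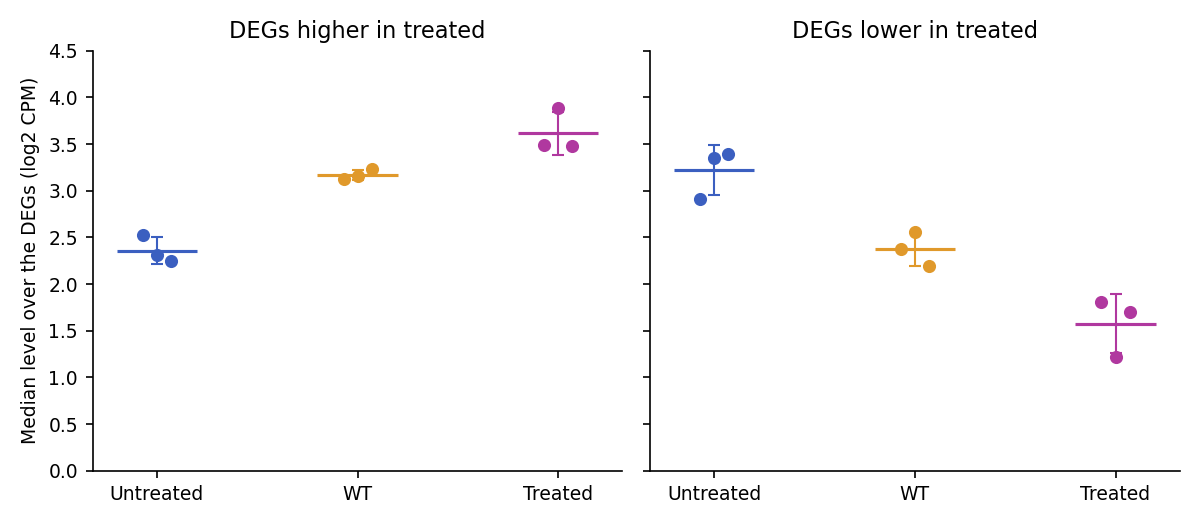
Median level in log2 CPM (y axis) over the 370 DEGs higher in treated pigs (left) and the 1064 lower ones (right), with 1 point per pig and the mean and SD of each group as bar and whiskers. The WT pigs lay between untreated and treated pigs in both sets, at 3.13 to 3.23 for the higher and 2.20 to 2.56 for the lower DEGs.

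Set against WT pigs in the same fit, treated pigs had 497 DEGs (3.77% of genes tested), 97 higher (0.736%) and 400 lower (3.03%). Untreated pigs had 702 (5.32%), 422 higher (3.2%) and 280 lower (2.12%). In both comparisons 0 genes (0%) passed an adjusted p of 0.05 by the same edgeR test. Both comparisons share the WT pigs, and each shares 3 HD-KI pigs with the comparison of treated and untreated pigs, so their sizes are not independent of each other. Over the 1064 lower DEGs, the median log2 fold change against WT was −0.88 in treated and 0.79 in untreated pigs. Over the 370 higher DEGs it was 0.37 in treated and −0.98 in untreated pigs. These genes were chosen by the difference between treated and untreated pigs, which sets the HD-KI groups on either side of a group like WT. The medians are thus a description only. The WT pigs had no CasRx, so a difference from WT also covers that vector and the knock-in allele.

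Named genes were taken from the 1135 DEGs without overlap whose higher group had a mean count of 10 or more (308 higher and 827 lower), and all 4 were in the lowest quartile of level. They were picked for the most extreme fold changes among these, so their fold changes are a description only. The largest rise was in ENSSSCG00000006171. It had no count in any untreated pig, 31, 13 and 4 counts in treated pigs and 1, 12 and 19 counts in WT pigs, replicates 1 to 3. Its level was 1.46 ± 1.33 CPM (SD, n = 3 pigs) in treated and 1.11 ± 0.862 CPM (SD, n = 3 pigs) in WT pigs. It was at least 7.81-fold higher in treated than in untreated pigs, set against a floor of 3 counts summed over the untreated group (edgeR, adjusted p = 0.146). Such a bound leaves out counting error in the higher group and the spread between pigs. The bound was 4.06-fold without treated replicate 1, which held 31 of the 48 counts, and 5.05-fold and 5.00-fold without untreated replicate 1 or 2, where the floor falls on fewer libraries.

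The next was ENSSSCG00000016030, also without a count in untreated pigs. It had 2, 22 and 13 counts in treated and 8, 0 and 14 counts in WT pigs. Its level was 1.11 ± 0.797 CPM (SD, n = 3 pigs) in treated pigs, at least 6.02-fold higher than in untreated pigs against the same floor (edgeR, adjusted p = 0.208). The bound was 3.89-fold and 3.86-fold without untreated replicate 1 or 2. Without treated replicate 2 and untreated replicate 3 its unadjusted P in edgeR was 0.073. Both genes were thus counted in all 3 treated pigs and in 3 and 2 of the WT pigs, and in none of the untreated pigs. The untreated libraries had the lowest totals, and the floor of 3 counts over them is 0.19 CPM. The part of depth in these zeros was not tested.

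Among the same DEGs the largest fall was in ENSSSCG00000050323, with 21, 16 and 6 counts in untreated pigs, 0, 0 and 2 in treated pigs and 3, 2 and 17 in WT pigs. Its level was 2.61 ± 1.21 CPM (SD, n = 3 pigs) in untreated and 0.0802 ± 0.139 CPM (SD, n = 3 pigs) in treated pigs (edgeR, adjusted p = 0.125). From the summed counts, 43 against 2, it was 44.0 times higher in untreated pigs (95% interval 11.5 to 375, exact binomial, counting error only). The ratio was 25.3 (6.58 to 215) without treated replicate 2, and without treated replicate 3, which held both counts, the gene was at least 21.9-fold higher in untreated pigs against the floor of 3 counts. ENSSSCG00000033010 had 11, 7 and 15 counts in untreated, 2, 0 and 0 in treated and 6, 15 and 3 in WT pigs. By summed counts, 33 against 2, it was 33.8 times higher in untreated pigs (95% interval 8.64 to 291, same method; edgeR, adjusted p = 0.125). The ratio was 19.4 (4.96 to 167) without treated replicate 2, and the gene was at least 15.3-fold higher in untreated pigs without treated replicate 1, which held both counts. Both were lower in the treated pigs, whose libraries were deeper than the untreated ones, and for both 2 of 3 treated pigs had no count. With the log2 total count as covariate, none of the 4 genes kept an unadjusted P under 0.05. The log2 fold change was then 6.84 for ENSSSCG00000006171, 5.24 for ENSSSCG00000016030 and −4.20 for ENSSSCG00000050323, against 6.62, 6.22 and −5.01 without the covariate, while that of ENSSSCG00000033010 went from −4.79 to 0.0023.

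**Figure D5:**
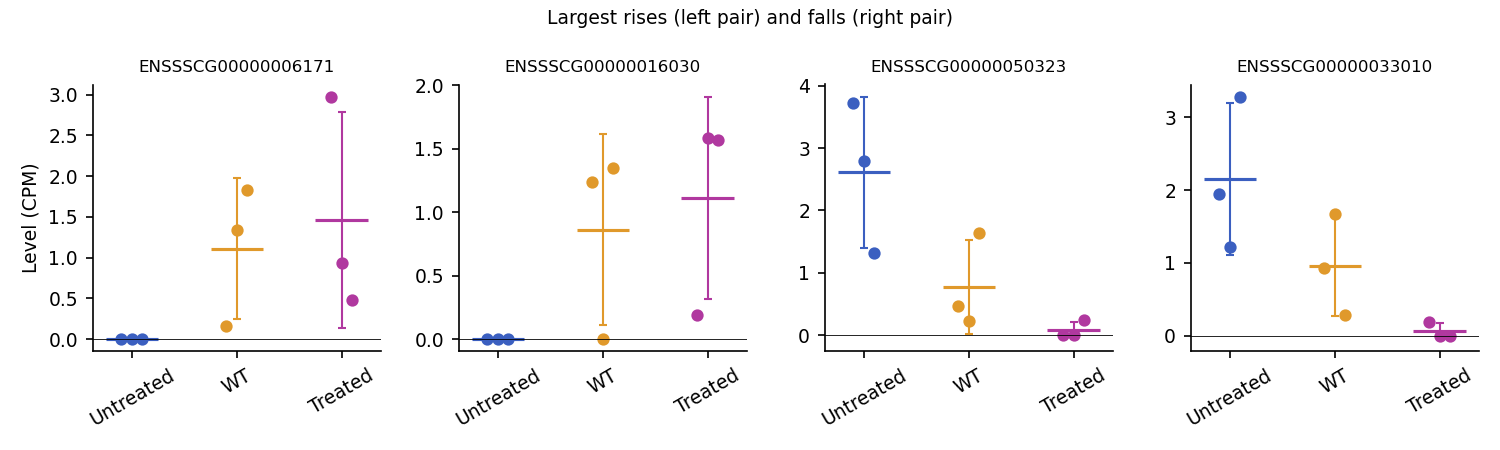
Level in CPM (y axis, a scale for each panel) of the 2 genes with the largest rise (ENSSSCG00000006171 and ENSSSCG00000016030) and the 2 with the largest fall (ENSSSCG00000050323 and ENSSSCG00000033010) in each pig, with the mean and SD of each group as bar and whiskers. Untreated pigs were at 0 for both rises, treated pigs at or near 0 for both falls, and in each of the 4 genes the range of the WT pigs overlapped with that of the treated or of the untreated pigs.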

How the data were processed

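RNA from pig striatum was sequenced in 9 libraries, 3 per group. The labels describe a polyA 3′ mRNA kit for all samples, while the methods send pig and mouse RNA to different companies. The authors deposited raw counts per Ensembl gene, whole numbers without normalization. The study's methods name STAR, whereas the submitters' processing notes name Trimmomatic 0.39, FastQC 0.11.9, HISAT2 2.2.1, featureCounts 2.0.1 and the build Sscrofa11.1. Which of these made the pig counts, and whether PCR duplicates were removed, is not given in the sources used here. Library totals ran from 4819236 to 16017775 counts.

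The comparison was fitted with edgeR 4.0.16 under R 4.3.3 (filterByExpr, TMM, glmQLFit on all 9 pigs, glmQLFTest). A DEG had P under 0.05 and at least a 2-fold change, as in the results of the study. Its methods give P under 0.01, at which 651 DEGs were found. The standard error of a log2 fold change was derived from its F statistic (absolute value over the root of F). Log2 CPM used a prior count of 2. Genes expected at equal depth were computed from the hypergeometric distribution. The 2 largest rises and 2 largest falls were named among DEGs with a mean of at least 10 counts in the higher group and no overlap. No 2 columns were identical, and that replicates are separate pigs is not stated. The members, the lists and the tests were chosen with earlier results of these data known. The alternatives included DESeq2 1.42.0 and cyclic loess offsets from limma 3.58.1. Planned results for HTT, the candidate off-target genes and gene lists could not be obtained without gene names. The steps were tested on simulated data. Figures were drawn with matplotlib 3.10.9. The mouse counts were not used here.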

Additional observations from a re-analysis of the deposited data

How the results depend on the processing

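The number of DEGs between treated and untreated HD-KI pigs (1434) moved to 955 with at least 10 counts in every library, 651 with a P under 0.01 and 474 with the log2 total count as a covariate, and was between 970 and 1873 with each pig left out. The number past an adjusted p of 0.05 (0) was 625 in DESeq2, 409 in edgeR's exact test, 717 without a filter and 12 with at least 10 counts in every library, and ran from 0 to 9 with each pig left out. The share of lower DEGs (74.2%) was 84.2% with scaling by total counts, 82.3% with at least 10 counts in every library, 76.9% both with only the 6 HD-KI pigs in the fit and after thinning to the smallest library, 77.1% with a filter on the mean level, 68.0% with cyclic loess offsets, 66.0% without treated replicate 2 and untreated replicate 3, and 63.9% to 74.6% with each pig left out. It turned only with the total count as covariate, to 23.6%. The median log2 fold change of the lowest quartile (−0.31) was −0.54 with at least 10 counts in every library, −0.0046 with loess offsets and 0.17 with the covariate. That of the highest quartile (0.23) was 0.12 with scaling by total counts, 0.047 with loess offsets and 0.084 with the covariate. The filter of 10 counts kept 9091 genes, so the −0.54 and the 82.3% cover only genes that passed it. As 10 counts are a higher CPM in a shallower library, that filter asked for a higher level in untreated than in treated pigs. ENSSSCG00000033010 changed direction with the covariate, to 0.0023. The cause of these changes was not tested, except that the loess offsets remove level-dependent differences by construction. The loess offsets, the filter on the mean level and the fit without both libraries were chosen after seeing the data. Neither the labels nor the study's text say that a replicate number shared between groups pairs animals. Treated and untreated pigs of the same number had deviations from their group means that correlated at −0.20, −0.13 and −0.061 across genes. Of the 6 pigs, 0 correlated best with the pig of the same number in the other HD-KI group. With a replicate block, 1244 DEGs were found, 72.3% of them lower, with 0 past an adjusted p of 0.05. Results for HTT, the candidate off-target genes and the gene lists, and the prior count of 0.5, were not run. Groups of 3 pigs and untreated libraries of at most 5503982 counts limit what can be detected among genes of low level.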
